A study of Homo sapiens with 6 samples.

Results

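Complex I, the NADH:ubiquinone oxidoreductase of the inner mitochondrial membrane, was examined through the mRNAs of its nuclear-encoded subunits and assembly factors. The members were the 48 rows whose gene symbol starts with NDUF, out of 21619 rows in the count table. Of these, 39 have NDUFA, NDUFB, NDUFC, NDUFS or NDUFV followed by a number and were taken as subunits, and 8 are named NDUFAF and were taken as assembly factors. NDUFAB1 meets neither pattern and was kept apart. The data were polyA RNA-seq of HT1080, a human fibrosarcoma cell line, in 2 groups of 3 libraries. PGK1_OE cells stably overexpress PGK1, the glycolytic enzyme phosphoglycerate kinase 1, and WT cells carry the wild-type label. The sample descriptions name the WT libraries by a code other than wild type, which the labels do not explain. The labels do not say whether WT cells received a vector, which promoter drove PGK1, or whether the overexpressing line is 1 clone.

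Complex I oxidises NADH from the matrix, passes the electrons along a flavin and a chain of iron-sulfur clusters to ubiquinone, and pumps protons. Its matrix arm has an N module, where NADH is oxidised, and a Q module, where ubiquinone is reduced. Its membrane arm has a proximal part next to the Q module and a distal part at its tip, and these parts are built separately and then joined with the help of assembly factors. A few core subunits carry the cofactors and do the chemistry, and the many accessory subunits around them support assembly and stability. The core subunits encoded in mitochondrial DNA were not analysed here.

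Counts summed to 40538274, 40386145 and 35851668 in the PGK1_OE libraries and to 37500947, 34425162 and 36266065 in the WT libraries. PGK1 itself, which checks the labels, had 13340, 12221 and 12418 CPM (normalised counts scaled to a common library size) in PGK1_OE and 523, 527 and 519 CPM in WT. The means were 12660 ± 597 CPM in PGK1_OE and 523 ± 4.03 CPM in WT (SD, n = 3 each), a log2 fold change of 4.60 (SE 0.04, edgeR adjusted p = 9.65e-14). The mesenchymal markers VIM, FN1, SPARC and CDH2 lay between 105 and 3569 CPM in the mean of either group, whereas THY1 was below 1 CPM. SPARC (1.09), VIM (0.92) and FN1 (0.55) were higher in PGK1_OE, and CDH2 (-0.54) and THY1 (-3.06) lower, as log2 fold changes that passed the edgeR test. EPCAM (epithelial) and PTPRC (blood) had 0 counts in all 6 libraries, CDH1 averaged 0 CPM in PGK1_OE and 0.559 CPM in WT, and PECAM1 averaged 10.4 CPM in PGK1_OE and 3.15 CPM in WT. The part of these marker differences in the results was not tested. Levels below are CPM on TMM-scaled library sizes, relative to all counts of a library. Fold changes are PGK1_OE over WT on the log2 scale, with p-values of the edgeR quasi-likelihood fit adjusted over the 14322 rows tested. Separate cultures are not stated, so p-values reflect only how far these libraries scatter, and that scatter may be technical. In bulk RNA, fewer cells with an mRNA and less of it per cell cannot be told apart.

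The promoters of 4 members are shown because they belong to the largest rises and, among members with a promoter entry, to the largest falls of the complex I genes. Each is the RefSeq window (GRCh38.p14) of 250 bases before and 50 bases after the start site, on the gene's plus strand. It is written 5′ to 3′ in lower case with capitals for any match to the motif searches described further on.
NDUFB10 (chr16:1959288-1959587, higher in PGK1_OE): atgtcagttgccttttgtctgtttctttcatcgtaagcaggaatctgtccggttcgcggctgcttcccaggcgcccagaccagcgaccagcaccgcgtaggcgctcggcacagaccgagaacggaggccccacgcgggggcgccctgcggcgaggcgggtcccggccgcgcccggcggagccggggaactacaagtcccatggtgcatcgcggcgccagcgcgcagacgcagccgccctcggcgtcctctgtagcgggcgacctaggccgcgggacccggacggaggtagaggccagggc
NDUFS3 (chr11:47578824-47579123, higher in PGK1_OE): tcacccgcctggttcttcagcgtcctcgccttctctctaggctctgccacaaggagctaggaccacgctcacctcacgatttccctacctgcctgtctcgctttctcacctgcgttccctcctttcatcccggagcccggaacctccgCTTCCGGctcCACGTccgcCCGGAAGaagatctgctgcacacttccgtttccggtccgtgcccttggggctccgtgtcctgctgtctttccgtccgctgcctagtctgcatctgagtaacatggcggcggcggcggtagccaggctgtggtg
NDUFAF2 (chr5:60944955-60945254, lower in PGK1_OE): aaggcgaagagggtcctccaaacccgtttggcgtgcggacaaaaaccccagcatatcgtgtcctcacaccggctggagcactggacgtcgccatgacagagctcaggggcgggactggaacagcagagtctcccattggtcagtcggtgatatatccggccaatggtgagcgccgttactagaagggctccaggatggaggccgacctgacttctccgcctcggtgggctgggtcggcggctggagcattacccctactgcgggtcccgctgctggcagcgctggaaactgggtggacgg
NDUFS4 (chr5:53560389-53560688, lower in PGK1_OE): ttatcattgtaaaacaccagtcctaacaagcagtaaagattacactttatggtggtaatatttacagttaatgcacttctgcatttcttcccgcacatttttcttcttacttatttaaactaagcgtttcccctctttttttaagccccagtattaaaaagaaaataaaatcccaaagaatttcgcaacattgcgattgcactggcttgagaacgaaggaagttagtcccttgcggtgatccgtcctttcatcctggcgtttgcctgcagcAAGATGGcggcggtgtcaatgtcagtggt

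All 48 members passed the filter on low counts, with at least 26 counts in every library. A total of 25 rose in PGK1_OE, 10 fell and 13 did not pass an adjusted p of 0.05. The background was high, since 71.2% of all rows tested changed, 35.4% upward and 35.8% downward. Of the 39 subunits 23 rose (59.0%), 7 fell (17.9%) and 9 did not pass, with a median log2 fold change of 0.32, against -0.02 over all rows tested. Of the 8 assembly factors 1 rose, 3 fell and 4 did not pass, with a median of -0.05. In either direction 76.9% of the subunits changed, near the background, and no test over the list was made of how they split between directions. The 39 include NDUFA4, NDUFA4L2 and the readthrough gene NDUFC2-KCTD14, and the other 36 were assigned to 4 modules.

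The changes were mostly small. At an adjusted p under 0.05 and at least 1.5-fold, 7 subunits rose and 3 fell, against a background of 21.1% of rows upward and 21.3% downward. NDUFB2, NDUFA8 and NDUFS8, each with a log2 fold change of 0.58, lay just below that limit. At least 2-fold changes were found for NDUFB10 and NDUFS3 upward (background 12.0%) and for NDUFA4L2 downward (background 12.1%). The 3 PGK1_OE libraries lay wholly above the 3 WT libraries for 25 of the 48 members and wholly below them for 13, against 37.9% and 38.5% of all rows tested.

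**Figure D1:**
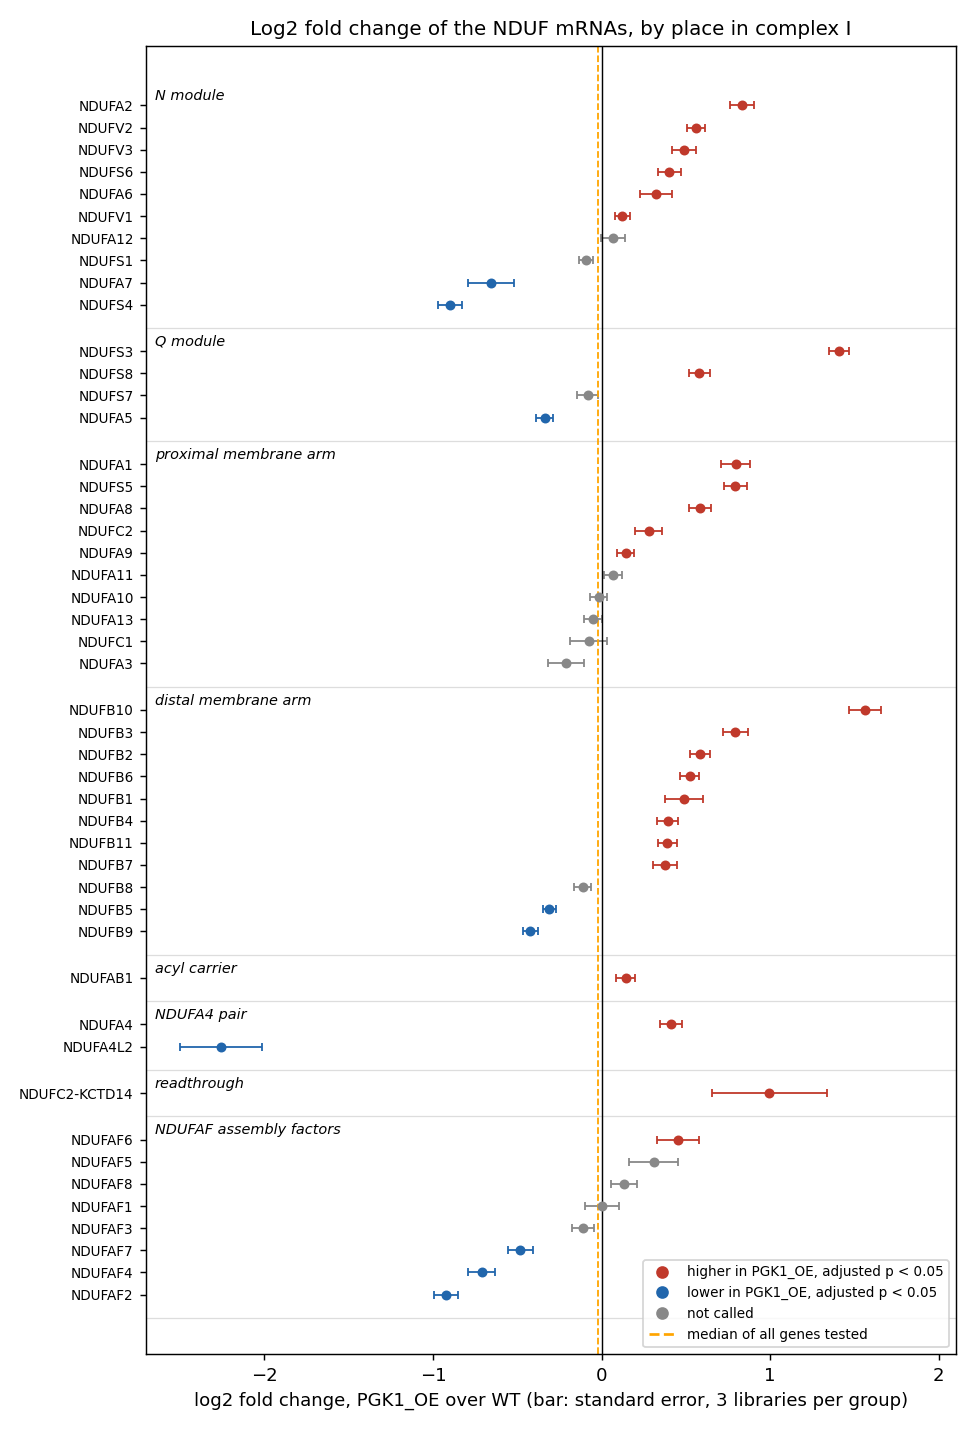
Log2 fold change of the NDUF mRNAs in PGK1_OE over WT (x axis), with its standard error, grouped by place in the complex; the dashed line is the median of all genes tested, -0.02. Most subunits lie to the right of 0, NDUFB10 (1.56) and NDUFS3 (1.41) farthest, and NDUFA4L2 (-2.26) lies far to the left.

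The nuclear core subunits described here did not move together. NDUFV1, which binds NADH and the flavin, stood at 93.9, 97.8 and 93.4 CPM in PGK1_OE and 87.2, 83.3 and 91.0 CPM in WT (log2 fold change 0.12, SE 0.05, edgeR adjusted p = 0.0318). NDUFV1 groups did not overlap, but its call was lost without PGK1_OE replicate 2 (adjusted p = 0.0899), WT replicate 1 (0.0614) or WT replicate 2 (0.0669), when scaled by library totals alone (0.129), and with log2(FPKM + 1) values in limma (0.359). NDUFV2, its iron-sulfur partner in the N module, rose more, with 62.5, 62.4 and 60.4 CPM in PGK1_OE and 41.7, 39.7 and 44.3 CPM in WT (0.56, SE 0.05, edgeR adjusted p = 2.36e-06). NDUFS1, the largest subunit, which carries several iron-sulfur clusters, had 137, 143 and 142 CPM in PGK1_OE and 154, 149 and 146 CPM in WT. All 3 PGK1_OE values of NDUFS1 lay below the WT values, and the difference of -0.09 (SE 0.04) did not pass (edgeR adjusted p = 0.0555). Scaled by library totals alone, it passed, at -0.14 (adjusted p = 0.00708).

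In the Q module, NDUFS3 had the largest rise of any core subunit. NDUFS3 (ENSG00000213619, chromosome 11, 47565336 to 47584562, plus strand) stood at 60.1, 57.0 and 56.0 CPM in PGK1_OE and 21.8, 22.5 and 20.8 CPM in WT. The groups were far apart relative to their spread, with a log2 fold change of 1.41 (SE 0.06, edgeR adjusted p = 1.72e-09). NDUFS8, an iron-sulfur subunit, rose as well, with 42.3, 42.2 and 44.4 CPM in PGK1_OE and 30.0, 27.3 and 28.8 CPM in WT (0.58, SE 0.06, edgeR adjusted p = 3.65e-06). NDUFS7, the carrier of the last iron-sulfur cluster before ubiquinone, had 32.6, 33.0 and 32.2 CPM in PGK1_OE and 32.5, 36.2 and 34.9 CPM in WT. These groups overlapped, and NDUFS7 was -0.08 (SE 0.06, edgeR adjusted p = 0.250). On the log2(FPKM + 1) scale NDUFS7 passed at -0.15 (limma adjusted p = 0.0245).

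NDUFS3 overlaps exons of PTPMT1 on its own strand over 19.6% of its exon length in GENCODE 29, and CELF1 and KBTBD4 on the opposite strand. Since the strand setting of the counting is not given in the sources used here, reads cannot be assigned to either strand. PTPMT1 was -0.14 (edgeR adjusted p = 0.0758) and CELF1 -0.11 (edgeR adjusted p = 0.0255), so neither rose with NDUFS3. KBTBD4 starts 104 bases upstream of NDUFS3 on the other strand, inside the promoter window printed above, and shares 6 exonic bases with it. KBTBD4 had 23.7, 24.2 and 23.1 CPM in PGK1_OE and 9.29, 8.52 and 7.65 CPM in WT, a log2 fold change of 1.48 (SE 0.10, edgeR adjusted p = 6.89e-08). Both genes of this head-to-head pair thus rose. KBTBD4 was taken up after its values were seen.

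Accessory subunits of the N module varied in both directions, and the module held the subunit of the 4 modules with the deepest fall. NDUFA2, a small subunit with a thioredoxin-like fold, rose most, with 32.8, 30.6 and 31.5 CPM in PGK1_OE and 16.5, 18.3 and 18.5 CPM in WT (0.83, SE 0.07, edgeR adjusted p = 8.75e-07). NDUFS4 (ENSG00000164258, chromosome 5, 53560633 to 53683340, plus strand) is an accessory subunit added late in assembly and is mutated in Leigh syndrome. It had 22.7, 20.1 and 22.9 CPM in PGK1_OE and 39.0, 43.2 and 40.5 CPM in WT. Every PGK1_OE library was far below every WT library, a 1.87-fold fall (-0.90, SE 0.07, edgeR adjusted p = 3.96e-07). NDUFA7 also fell (-0.66, SE 0.14), at 6.15, 7.39 and 8.09 CPM in PGK1_OE and 10.1, 12.5 and 11.4 CPM in WT. It shares 32.3% of its exon length with AC010323.1 on the same strand, a gene with 3, 10 and 9 counts in PGK1_OE and 15, 14 and 46 counts in WT that fell as well (-1.81, edgeR adjusted p = 0.0250). NDUFV3 (0.49), NDUFS6 (0.40) and NDUFA6 (0.32) rose, and NDUFA12 was 0.07 (SE 0.07, edgeR adjusted p = 0.402). The module had 6 rises (60%) and 2 falls (20%) among 10 members and a median of 0.22, against 35.4% up and 35.8% down over all rows tested.

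NDUFA5, an accessory subunit of the Q module, had 63.5, 68.3 and 68.2 CPM in PGK1_OE and 82.0, 85.9 and 85.0 CPM in WT (-0.34, SE 0.05, edgeR adjusted p = 5.14e-05). The deposited FPKM of NDUFA5 differed more, at 16.7, 28.0 and 18.4 in PGK1_OE and 53.7, 54.2 and 58.3 in WT, and gave -1.39 on the log2(FPKM + 1) scale. Both measures place NDUFA5 lower in PGK1_OE, and they differ in how far. NDUFA5 has 12 processed copies by name in GENCODE 29, which can share reads with it. NDUFB4 has 12 as well, and its log2 fold change was 0.39 from counts and 0.30 from log2(FPKM + 1). The part of such copies in the difference between the measures was not tested.

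**Figure D2:**
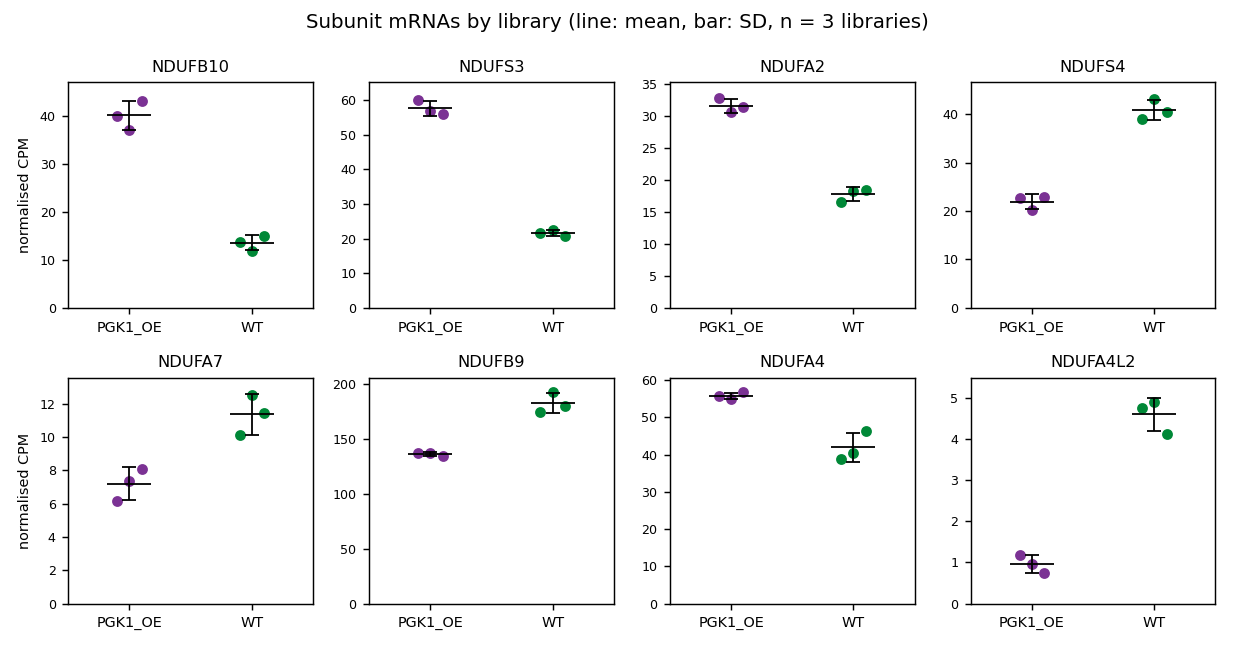
Normalised CPM (y axis, from 0) of 8 subunit mRNAs in the 3 PGK1_OE and the 3 WT libraries, with mean and SD. NDUFB10, NDUFS3, NDUFA2 and NDUFA4 lie higher in PGK1_OE, NDUFS4, NDUFA7, NDUFB9 and NDUFA4L2 lower, and in none of these panels do the groups overlap.

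In the proximal membrane arm 5 of 10 members rose and none fell by the edgeR test, with a median of 0.11. Over all rows tested 35.4% rose and 35.8% fell, so the 50% that changed in either direction is below the 71.2% of all rows. NDUFA1, a small single-span membrane subunit, led with 25.7, 24.2 and 25.9 CPM in PGK1_OE and 13.9, 13.7 and 16.1 CPM in WT (0.79, SE 0.09, edgeR adjusted p = 5.68e-06). It shares 44.5% of its exon length with RNF113A on the opposite strand, which fell (-0.54, SE 0.08). NDUFS5 (0.79, SE 0.07) and NDUFA8 (0.58, SE 0.07) rose too. NDUFA3 was the lowest of the arm, with 9.60, 8.65 and 9.28 CPM in PGK1_OE and 10.5, 10.6 and 10.8 CPM in WT. Its groups did not overlap, yet the difference did not pass (-0.21, SE 0.11, edgeR adjusted p = 0.0986). NDUFA10, a kinase-like subunit, was -0.02 (SE 0.05), NDUFA13 -0.05 (SE 0.06), NDUFC1 -0.08 (SE 0.11) and NDUFA11 0.07 (SE 0.05), none of them past the threshold. NDUFA9, a dehydrogenase-like subunit at the junction with the matrix arm, was 0.14 (SE 0.05, edgeR adjusted p = 0.0210). The NDUFA9 call was lost without PGK1_OE replicate 3 (adjusted p = 0.0822) or WT replicate 3 (0.0647), with library totals (0.0862) and on log2(FPKM + 1) values (0.0959).

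NDUFC2 shares its first exons with the readthrough gene NDUFC2-KCTD14, so how reads were divided between these rows is uncertain. NDUFC2 had 48.5, 55.7 and 51.3 CPM in PGK1_OE and 42.7, 38.1 and 47.2 CPM in WT (0.28, SE 0.08, edgeR adjusted p = 0.00980). NDUFC2-KCTD14 varied widely within groups, with 22.0, 13.6 and 20.7 CPM in PGK1_OE and 9.87, 12.4 and 5.90 CPM in WT (1.00, SE 0.34, edgeR adjusted p = 0.0472). Its call was lost without PGK1_OE replicate 1 (adjusted p = 0.120), PGK1_OE replicate 3 (0.117) or WT replicate 1 (0.117), with library totals (0.0582) and without the low-count filter (0.0689). The summed level of both rows was 70.5, 69.2 and 72.0 CPM in PGK1_OE and 52.5, 50.5 and 53.1 CPM in WT, with no overlap. The readthrough gene also shares 47.8% of its exon length with KCTD14 on the same strand, which fell (-0.46, edgeR adjusted p = 2.94e-04), so the sum still depends on how reads were divided with KCTD14.

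The distal membrane arm, made of the NDUFB subunits, held the most rises, 8 of 11 members against 2 falls, and a median of 0.39. These are 72.7% and 18.2%, against 35.4% up and 35.8% down over all rows tested. At least 1.5-fold, 2 of the 11 rose (18.2%), near the 21.1% of all rows tested. NDUFB10 (ENSG00000140990, chromosome 16, 1959508 to 1961975, plus strand), an accessory subunit with cysteine pairs oxidised on import, had the largest rise of all members. It stood at 40.1, 37.1 and 43.3 CPM in PGK1_OE and 13.9, 11.9 and 15.1 CPM in WT. That is a 2.95-fold rise, well beyond the spread between libraries (1.56, SE 0.09, edgeR adjusted p = 3.51e-08). No annotated exon of another gene overlaps NDUFB10, and 2 processed copies carry its name. NDUFB3 (0.79, SE 0.07), NDUFB2 (0.58, SE 0.06), NDUFB6 (0.52, SE 0.06) and NDUFB1 (0.49, SE 0.11) rose by less, as did NDUFB4, NDUFB11 and NDUFB7 (0.39, 0.39 and 0.37).

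Not every distal subunit followed. NDUFB9 had 137, 137 and 134 CPM in PGK1_OE and 175, 193 and 180 CPM in WT, with no overlap (-0.42, SE 0.04, edgeR adjusted p = 3.48e-06). On the opposite strand, MTSS1 overlaps 16.5% of its exon length and was -0.18 (edgeR adjusted p = 0.450), and TATDN1 overlaps 4.55% and fell (-1.09, edgeR adjusted p = 1.91e-07). NDUFB5 had 155, 152 and 158 CPM in PGK1_OE and 188, 200 and 190 CPM in WT (-0.31, SE 0.04, edgeR adjusted p = 2.24e-05). The deposited FPKM of NDUFB5 scattered far more than its counts, at 72.3, 48.8 and 111 in PGK1_OE and 128, 176 and 154 in WT, and gave -1.04 on the log2(FPKM + 1) scale. NDUFB8 was -0.11 (SE 0.05, edgeR adjusted p = 0.0747) with overlapping groups, and passed at -0.14 without WT replicate 1 (adjusted p = 0.0399), at -0.16 with library totals (0.0220) and at -0.16 on log2(FPKM + 1) values (0.0235).

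A feature that cuts across the modules was looked at after the values were seen. NDUFS5, NDUFA8, NDUFB7 and NDUFB10 are the subunits known to face the intermembrane space with paired cysteines of the kind oxidised during import, and all 4 rose, by 0.79, 0.58, 0.37 and 1.56. Of the 39 subunits 59.0% rose, and of all rows tested 35.4%. These 4 genes were grouped with their values known and include the largest rise of all members, so that all 4 rose is a description only.

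By the authors' FPKM, fragments scaled by length and by depth, the 36 subunits of the 4 modules spanned a wide range. The length used for each gene is not given. NDUFA10 had 75.4, 74.3 and 76.4 CPM in PGK1_OE but 18.8, 15.1 and 32.9 FPKM, so FPKM did not follow the counts at 1 fixed length. Comparisons between genes by FPKM are therefore uncertain. The median FPKM was 53.1 in PGK1_OE and 36.3 in WT. NDUFV3 was lowest, at 5.39 ± 0.224 FPKM in PGK1_OE and 4.10 ± 0.277 FPKM in WT (SD, n = 3 each), and NDUFB9 highest, at 165 ± 2.59 FPKM in PGK1_OE and 227 ± 23.2 FPKM in WT. The span between them was 30.7-fold in PGK1_OE and 55.2-fold in WT. NDUFV3, the lowest, rose and NDUFB9, the highest, fell. The 36 subunits summed to 1911, 1841 and 1968 FPKM in PGK1_OE and 1708, 1854 and 1831 FPKM in WT, and these sums overlapped. By CPM, the sums were 1978, 1949 and 2003 in PGK1_OE and 1838, 1853 and 1876 in WT, without overlap and with a ratio of means of 1.07. By arm, that CPM ratio was 1.15 for the proximal membrane arm, 1.08 for the N module, 1.02 for the distal membrane arm and 1.02 for the Q module, and the sums of the distal arm and of the Q module overlapped between groups. By FPKM the ratio was 0.993 for the distal arm and between 1.02 and 1.18 for the others. The distal FPKM sums overlapped, at 795, 745 and 821 in PGK1_OE and 725, 863 and 790 in WT. Those of the Q module overlapped too, and those of the proximal arm and of the N module did not.

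**Figure D3:**
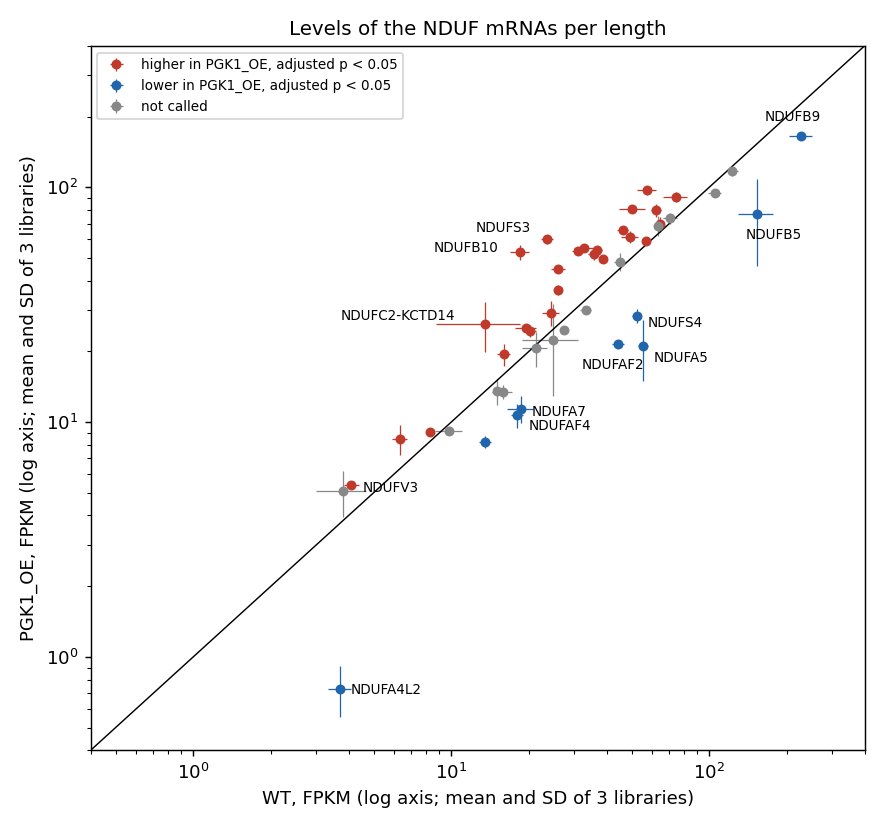
Deposited FPKM of the NDUF mRNAs in PGK1_OE (y axis) and WT (x axis), both on log axes, as mean and SD of 3 libraries; the line marks equal levels. NDUFB10 and NDUFS3 stand above the line, NDUFA4L2 lies lowest on both axes and far below it, and the wide bars of NDUFB5 and NDUFA5 show how much their FPKM varied. The FPKM of NDUFA10, not named in the plot, varied widely too (22.3 ± 9.41 in PGK1_OE and 24.9 ± 6.12 in WT, SD, n = 3 each).

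NDUFAB1 and the NDUFA4 pair carry NDUF names but play wider roles. NDUFAB1, the mitochondrial acyl carrier protein, stood at 51.3, 49.2 and 55.1 CPM in PGK1_OE and 47.1, 45.6 and 48.2 CPM in WT (0.14, SE 0.06, edgeR adjusted p = 0.0422). The NDUFAB1 call did not hold without PGK1_OE replicate 3 (adjusted p = 0.178), WT replicate 1 (0.0757) or WT replicate 2 (0.0869), and in DESeq2 (0.0645). It was also lost with library totals (0.141), without the low-count filter (0.0504) and on log2(FPKM + 1) values (0.131). NDUFA4, counted today with cytochrome c oxidase, rose, with 55.6, 54.9 and 56.7 CPM in PGK1_OE and 38.9, 40.4 and 46.3 CPM in WT (0.41, SE 0.07, edgeR adjusted p = 1.63e-04).

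NDUFA4L2, the paralog of NDUFA4 known as a target of hypoxia-inducible factors, had the largest fall of all members. NDUFA4L2 (ENSG00000185633, chromosome 12, 57234903 to 57240715, minus strand) had 47, 38 and 26 counts in PGK1_OE and 180, 173 and 151 counts in WT, the fewest counts of any member. In CPM this was 1.17, 0.96 and 0.74 in PGK1_OE and 4.75, 4.90 and 4.13 in WT, a 4.78-fold fall (-2.26, SE 0.24, edgeR adjusted p = 5.14e-06). As log2(FPKM + 1), where the added 1 shrinks changes at such low levels, it was -1.44. Its FPKM was 3.62%, 2.99% and 2.16% of that of NDUFA4 in PGK1_OE and 21.1%, 21.2% and 15.4% in WT. The paralogs thus moved in opposite directions and the share of NDUFA4L2 did not overlap between groups. NDUFA4L2 overlaps SHMT2 on the opposite strand over 33 exonic bases, 1.18% of its exon length. SHMT2 had 5424, 5844 and 5157 counts in PGK1_OE and 10391, 8471 and 10322 counts in WT and fell too (-0.89, edgeR adjusted p = 5.66e-07), and its part in the NDUFA4L2 counts was not tested.

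Of the 8 NDUFAF assembly factors 1 rose (12.5%) and 3 fell (37.5%), the falls near the 35.8% of all rows tested. NDUFAF2 (ENSG00000164182, chromosome 5, 60945129 to 61153037, plus strand), a paralog of NDUFA12 that helps to attach the N module, had the largest fall. It had 17.3, 18.5 and 18.8 CPM in PGK1_OE and 32.1, 35.7 and 35.7 CPM in WT, a 1.90-fold fall with well separated groups (-0.92, SE 0.07, edgeR adjusted p = 3.24e-07). NDUFA12, the subunit that takes its place, had 46.3, 38.0 and 43.2 CPM in PGK1_OE and 39.5, 40.9 and 41.0 CPM in WT, which overlapped. NDUFAF4, which acts with NDUFAF3 on the Q module, had 27.6, 31.4 and 25.1 CPM in PGK1_OE and 44.8, 48.2 and 44.6 CPM in WT (-0.71, SE 0.08, edgeR adjusted p = 7.94e-06). NDUFAF3 had 23.5, 23.8 and 24.9 CPM in PGK1_OE and 25.6, 25.8 and 26.4 CPM in WT. The NDUFAF3 values did not overlap either, but the difference of -0.11 (SE 0.06) did not pass in edgeR (adjusted p = 0.156). It passed at -0.15 on log2(FPKM + 1) values (limma adjusted p = 0.0117).

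NDUFAF7, a methyltransferase that acts early in assembly, fell. It had 18.4, 19.9 and 18.3 CPM in PGK1_OE and 25.5, 25.8 and 27.8 CPM in WT (-0.48, SE 0.07, edgeR adjusted p = 1.08e-04). Its head-to-head neighbour CEBPZ, whose exons overlap it on the opposite strand, fell as well (-0.46, SE 0.04, edgeR adjusted p = 9.19e-07). PRKD3, which overlaps more of it on the opposite strand (7.26% of its exon length, against 2.27% for CEBPZ), rose (0.26, edgeR adjusted p = 3.23e-04). NDUFAF6, needed early in assembly, was the assembly factor that rose. It had 12.1, 15.1 and 16.7 CPM in PGK1_OE and 11.2, 10.6 and 10.3 CPM in WT, with no overlap (0.45, SE 0.12, edgeR adjusted p = 0.00659).

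The other assembly factors did not pass. NDUFAF1, a part of the membrane-arm assembly complex, had 14.6, 16.1 and 16.2 CPM in PGK1_OE and 17.3, 15.4 and 14.1 CPM in WT (0.0030, SE 0.10, edgeR adjusted p = 0.981). NDUFAF5, which hydroxylates NDUFS7, had 11.4, 14.3 and 12.6 CPM in PGK1_OE and 11.9, 8.23 and 10.8 CPM in WT (0.31, SE 0.15, edgeR adjusted p = 0.0757). It passed without PGK1_OE replicate 1 (0.40, adjusted p = 0.0492) and without WT replicate 1 (0.43, adjusted p = 0.0322). NDUFAF8, the partner of NDUFAF5, had 31.6, 26.7 and 30.6 CPM in PGK1_OE and 25.5, 27.1 and 28.4 CPM in WT (0.13, SE 0.08, edgeR adjusted p = 0.147). Leaving out PGK1_OE replicate 2 brought it past the threshold (0.21, adjusted p = 0.0321). The 8 NDUFAF mRNAs summed to 157, 166 and 163 CPM in PGK1_OE and 194, 197 and 198 CPM in WT, without overlap.

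**Figure D4:**
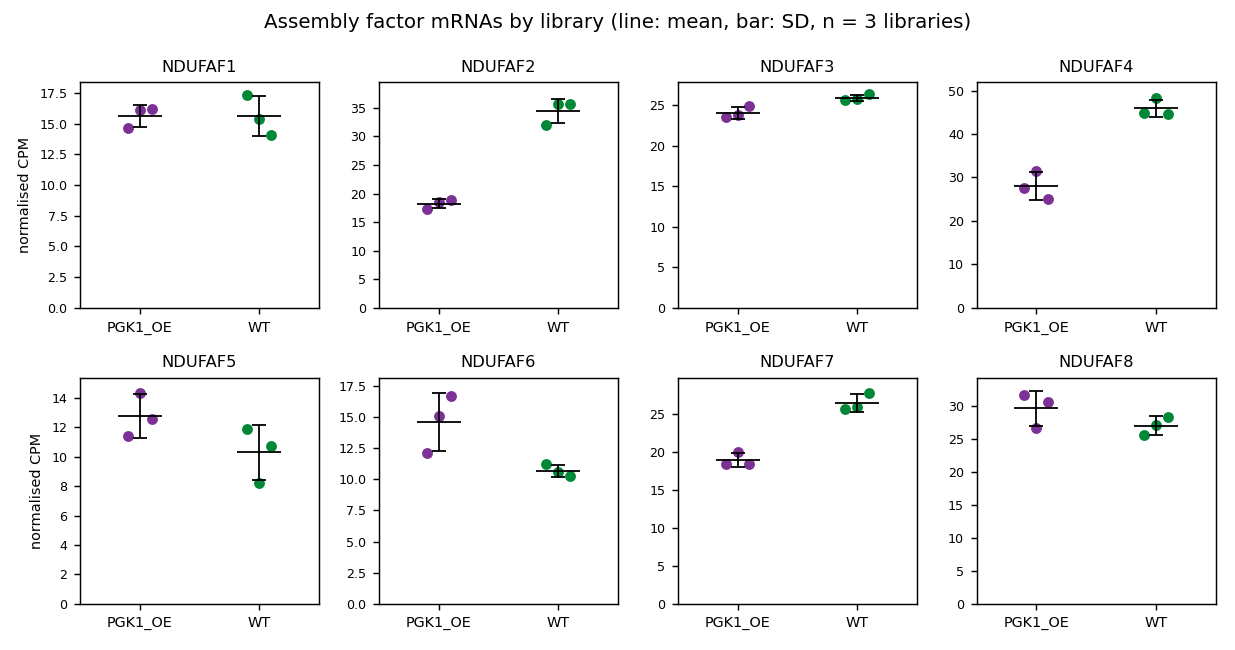
Normalised CPM (y axis, from 0) of the 8 NDUFAF mRNAs in the 3 PGK1_OE and the 3 WT libraries, with mean and SD. NDUFAF2, NDUFAF4 and NDUFAF7 lie clearly lower in PGK1_OE, NDUFAF6 lies higher, and NDUFAF1, NDUFAF5 and NDUFAF8 overlap between the groups.

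Assembly factors of complex I with other names changed in both directions. Of 13 members 6 rose and 6 fell (46.2% each), with a median of -0.11, against 35.4% up and 35.8% down over all rows tested. TIMMDC1, an anchor for the proximal arm, averaged 160 ± 3.26 CPM in PGK1_OE and 236 ± 1.17 CPM in WT (SD, n = 3 each), a log2 fold change of -0.56 (SE 0.04, edgeR adjusted p = 5.26e-08). NUBPL, which delivers iron-sulfur clusters to complex I, averaged 15.5 ± 0.564 CPM in PGK1_OE and 27.9 ± 2.22 CPM in WT (SD, n = 3 each; -0.85, SE 0.08, edgeR adjusted p = 1.85e-06). TMEM186 (-1.03) and TMEM126A (-0.63) fell as well. Of the complex that builds the membrane arm around NDUFAF1, the members ECSIT (0.49) and ACAD9 (0.35) rose, TMEM186 and COA1 (-0.20) fell, and TMEM126B was -0.11 (edgeR adjusted p = 0.0777).

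Genes that supply the cofactors of complex I were looked at next. Of 15 genes of iron-sulfur cluster supply 5 rose (33.3%) and 7 fell (46.7%), with a median of -0.01, against 35.4% and 35.8% of all rows tested. HSPA9, the mitochondrial chaperone that hands clusters on, averaged 536 ± 22.5 CPM in PGK1_OE and 1257 ± 12.7 CPM in WT (SD, n = 3 each; -1.23, SE 0.04, edgeR adjusted p = 1.84e-10). GLRX5, the glutaredoxin that receives them, averaged 79.2 ± 2.89 CPM in PGK1_OE and 38.8 ± 4.24 CPM in WT (SD, n = 3 each; 1.03, SE 0.07, edgeR adjusted p = 2.42e-07). NUBPL, counted above, fell and ISCA2 rose (0.78). All 3 genes of flavin supply fell, namely riboflavin kinase RFK (-0.90), FAD synthase FLAD1 (-0.80) and the mitochondrial carrier SLC25A32 (-0.75).

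Of 9 transcriptional regulators of respiratory genes 2 rose (22.2%) and 3 fell (33.3%), with a median of -0.12, against 35.4% and 35.8% of all rows tested. NRF1, a DNA-binding activator of nuclear genes for mitochondrial proteins, averaged 19.6 ± 1.63 CPM in PGK1_OE and 9.56 ± 1.30 CPM in WT (SD, n = 3 each; 1.04, SE 0.12, edgeR adjusted p = 8.47e-06). YY1 rose by 0.74 (SE 0.04), while the coactivator PPRC1 (-0.42), ESRRA (-0.26) and TFAM (-0.26), which acts on mitochondrial DNA, fell. PPARGC1A, PPARGC1B, GABPA and GABPB1 lay between -0.22 and -0.02 and did not pass. Of the 3 proteases that clear matrix proteins, LONP1 averaged 180 ± 3.36 CPM in PGK1_OE and 346 ± 7.57 CPM in WT (SD, n = 3 each; -0.94, SE 0.04, edgeR adjusted p = 9.42e-10). CLPP was 0.14 (edgeR adjusted p = 0.0477) and CLPX 0.06 (edgeR adjusted p = 0.244). Complex I protein and activity were not measured here.

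The promoters were searched on both strands for short motifs, in 52 windows of 40 members. NDUFA4, NDUFA4L2, NDUFAF6 and NDUFB9 were among those with no entry. The palindromic NRF1 motif, given here by its name alone, was in 3 member windows (5.77%), against 1.24% of all 35116 windows, and these belong to NDUFB4, NDUFA8 and NDUFAF5. The YY1 core AAGATGG was in 11 (21.2%), against 5.84%, and the ETS core CCGGAAG in 8 (15.4%), against 10.3%. By call, the YY1 core was in 2 of 21 windows of members that rose, 6 of 23 not called and 3 of 8 that fell. NDUFAF8 counts more than once among these, through overlapping windows. The E-box CACGTG was in 4 (7.69%), against 7.26%. The hypoxia core ACGTG, which lies inside the E-box, was in 12 (23.1%), against 21.4%. Of the promoters printed above, NDUFS3 holds 2 ETS cores and 1 hypoxia core within 102 bases before its start, NDUFS4 holds a YY1 core 21 bases after its start, and NDUFB10 and NDUFAF2 hold none of the searched letters. A match describes the sequence and is no evidence of binding.

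Sequence and gene architecture were compared among the 36 subunits of the 4 modules, as a description over genes measured in the same libraries. Their mRNAs are short, with a median of 893 nucleotides for the transcript with the longest coding sequence in GENCODE 29, against 3079 over the tested genes with a value. The 21 subunits that rose had a median gene span of 9.05 kb, the 9 that did not pass 13.3 kb and the 6 that fell 22.1 kb. Across the 36 subunits the log2 fold change correlated with gene span at Spearman rho = -0.37, and with transcript length at -0.20. Over all 48 NDUF members these were -0.17 and -0.23. Over all tested genes with a value the same coefficients were -0.09 and -0.03. NDUFS4, which fell, spans 123 kb, whereas NDUFB10, which rose, spans 2.47 kb. Of other long genes among the 36, NDUFA10 (133 kb, -0.02) and NDUFA12 (107 kb, 0.07) did not pass. Of the assembly factors, outside the 36, NDUFAF2 spans 208 kb and fell (-0.92), and NDUFAF6 spans 221 kb and rose (0.45). The part of gene span in these changes was not tested. Among tested genes with transcripts under 1000 nucleotides, 35.3% rose and 29.8% fell, against 14 rises and 3 falls among the 22 subunits of that length.

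Head-to-head neighbours, with start sites on opposite strands within 1000 bases, were sought from the promoter entries. The 8 members without an entry were not covered, among them NDUFB9, whose overlap with TATDN1 is given above. Such neighbours were found for 14 members with a tested partner. In 5 of these 14 pairs both genes changed, in 3 pairs in the same direction and in 2 in opposite directions. Of all rows tested 71.2% changed, 35.4% upward and 35.8% downward. The share of such pairs over all genes was not computed, so these counts are a description only. The same-direction pairs were NDUFS3 with KBTBD4, NDUFAF7 with CEBPZ, and NDUFB11 with RBM10 (0.39 and 0.14), and the opposite ones NDUFA1 with RNF113A and NDUFB1 with CPSF2 (0.49 and -0.14). Exons of 27 members overlap exons of another annotated gene, 21 of them on the opposite strand, and 19 members have processed copies by name, 59 copies in all. The values of those members may include reads of the other gene.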

How the data were processed

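Per the submitters' processing notes, reads were handled with fastp and HISAT on genome build hg38. Not given in the sources used here: versions, the read counter, its strand setting and the annotation release. The authors deposited raw read counts per gene, with no normalization, and FPKM values whose tool is not given.

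Samples were grouped by title, and table columns were matched through the sample descriptions. The count model was fitted with edgeR 4.0.16 under R 4.3.3. Rows with low counts were removed with filterByExpr, leaving 14322 of 21619 rows, libraries were scaled by TMM, and group was the only term of a robust quasi-likelihood model, tested two-sided. Benjamini-Hochberg adjustment ran over every row tested, with a threshold of 0.05. Standard errors were taken as |log2 fold change| over the root of the F statistic. The common dispersion of 0.0230 corresponds to a coefficient of variation of 15.2%. The steps were tested on simulated counts.

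Counts of libraries of the same group differed beyond counting error (chi-square of 7.67 to 14.6 for each degree of freedom), so each library was counted once. This does not tell separate cultures from repeat preparations. Precision is limited by 3 libraries per group, which carry 1 batch label. Alternatives were RLE factors, library totals, PGK1 left out of the scaling, other count filters, DESeq2 1.42.0, limma 3.58.1 on FPKM, a replicate block and leaving out each library. The limma fits used log2(FPKM + 1) with and without a minimum of 1 FPKM in 3 libraries, and log2(FPKM + 0.1) with that minimum only.

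The members, lists and modules were chosen with earlier results of these data known, so no test over a list was made. All NDUF rows enter the counts, medians and sums, and 1 member is not reported here by itself. Values in each library are given for PGK1, the NDUFAF genes, NDUFAB1, the NDUFA4 pair, core subunits and the largest and smallest fold change of each module, and fold changes or group means for up to 4 members of other lists with the smallest adjusted p, plus others named in the text. Some further genes were named after their values were seen, such as KBTBD4 and genes that overlap a member. Gene coordinates and overlaps are from GENCODE 29 on GRCh38, and promoters are RefSeq windows on GRCh38.p14.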

Additional observations from a re-analysis of the deposited data

How the results depend on the processing

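Of the 35 members called by edgeR, 30 kept their direction and their call in all 16 alternatives, and the others (NDUFV1, NDUFA9, NDUFAB1, NDUFC2 and NDUFC2-KCTD14) kept their direction but lost the call in at least 1. NDUFC2 lost it only on log2(FPKM + 1) values without a filter (0.25, adjusted p = 0.0635). Subunits that rose numbered 20 to 23 and those that fell 7 to 10 over the alternatives. The count of assembly factors that rose was 1, and ranged from 1 to 2 when a library was left out. The calls over all rows numbered 8817 to 10229. Uncalled values near 0 changed sign. NDUFAF1 (0.0030) was -0.042 with library totals, -0.083 on log2(FPKM + 1) with or without a filter and -0.090 on log2(FPKM + 0.1), and -0.058 to 0.091 with a library left out. Leaving out a library gave -0.039 to 0.036 for NDUFA10, which was above 0 without WT replicate 1, and -0.13 to 0.035 for NDUFC1, above 0 without WT replicate 3. NDUFC1 passed at -0.21 on log2(FPKM + 1) (limma adjusted p = 0.0318). FPKM moved NDUFA5 and NDUFB5 by more than 1.5-fold, as given with their values, and the cause was not tested. NDUFA4L2 was -1.44 on log2(FPKM + 1) and -2.21 on log2(FPKM + 0.1), so the added 1 moved it. Same-numbered libraries did not deviate together (r between -0.013 and 0.095), so the numbers were not taken as pairs. With the replicate block 9943 rows were called in place of 10195, 21 subunits rose, 7 fell, 1 assembly factor rose and 3 fell, and NDUFV1 (adjusted p = 0.0546) and NDUFC2-KCTD14 (0.138) were not called. Leaving PGK1 out of the scaling moved the count over all rows to 10194.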
